A study of Mus musculus with 6 samples.

Results

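The genes described here are the matrix metalloproteases (Mmp), the Adamts proteases and their tissue inhibitors (Timp), 42 genes chosen by symbol as these 3 families and matched once each among the 55487 gene IDs of the deposited count table. They comprise 19 Mmp, 19 Adamts and 4 Timp genes. RNA-Seq was performed on dissected rib cages of 6 mouse embryos at 16.5 dpc. The 3 mutants (E423, E433 and E440) are labelled Col2-cre;Foxc1-/-;Foxc2-/-, and in the study's methods both genes are floxed and are deleted by a cre under Col2 control. A reporter cross in the study found this cre active across the embryonic skeleton, with chondrocytes, perichondrium and the primary ossification centre named for the hind limb. Where it acted in the rib cage was not analysed here. The 3 controls (E420, E434 and E435) are labelled wild type, and according to the methods they are littermates that lack Col2-cre, on the same mixed C57B6 and Black Swiss background. Since all mothers of the cross were homozygous for the floxed alleles, the controls carry a floxed copy of each gene. The labels give no litter, batch or sex. The p-values below set the difference of the groups against the spread between these embryos, in which litter, batch and sex may be mixed.

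Matrix metalloproteases are zinc enzymes, made as inactive precursors, that cut collagens, proteoglycans and other proteins outside the cell. In endochondral bone the collagenase Mmp13, made by late hypertrophic chondrocytes and osteoblasts, and the gelatinase Mmp9, made mainly by osteoclasts, remove cartilage matrix so that vessels and bone can enter. Mmp14 is a membrane enzyme that cuts collagen and activates the Mmp2 precursor with the help of Timp2. Adamts proteases carry thrombospondin repeats and include enzymes that cut aggrecan and versican, enzymes that trim procollagens, and enzymes of small fibrillin-rich fibres. The Timps bind the active site of these enzymes, with Timp3 the inhibitor of the widest range.

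Of the Mmp genes, 7 lie in a run of 427.1 kb on chromosome 9 (GRCm38, from 7272514 to 7699585), in the order Mmp13, Mmp12, Mmp3, Mmp10, Mmp8, Mmp20 and Mmp7. The bases before the start sites of 4 of them and of Mmp14 are shown because Mmp13 and Mmp14 were among the members whose groups did not overlap, and because several genes of the cluster held a shared motif. The sequences shown were thus picked with their matches known. The promoter of Timp1, whose groups also did not overlap, held none of the motifs named below and is not shown. Promoters from RefSeq (GRCm38.p6, 250 bases before to 50 bases after a start) were present for 28 of the 42 members, with 31 start sites in all. They were searched on both strands for the AP-1 motif TGACTCA, the RUNX core TGTGGT and the forkhead core GTAAACA, so that a match may read as the reverse complement. No 2 matches overlap in the sequences below. Each line gives 150 bases, all on the plus strand, ending at the last base before the start, with the motifs found in capitals.
Mmp13, chr9:7272364-7272513: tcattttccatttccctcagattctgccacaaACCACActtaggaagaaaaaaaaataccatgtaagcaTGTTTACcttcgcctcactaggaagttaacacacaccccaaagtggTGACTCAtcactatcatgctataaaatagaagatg
Mmp12 (second of its start sites), chr9:7347224-7347373: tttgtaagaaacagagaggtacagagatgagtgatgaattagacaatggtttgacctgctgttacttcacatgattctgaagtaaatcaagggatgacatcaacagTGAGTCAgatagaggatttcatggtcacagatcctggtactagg
Mmp3, chr9:7445672-7445821: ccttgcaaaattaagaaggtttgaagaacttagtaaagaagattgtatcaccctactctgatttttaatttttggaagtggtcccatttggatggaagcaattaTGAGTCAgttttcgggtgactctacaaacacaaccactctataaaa
Mmp10, chr9:7502192-7502341: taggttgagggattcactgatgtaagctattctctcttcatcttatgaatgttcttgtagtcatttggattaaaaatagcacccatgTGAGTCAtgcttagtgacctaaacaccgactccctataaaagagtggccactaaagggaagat
Mmp14, chr14:54431448-54431597: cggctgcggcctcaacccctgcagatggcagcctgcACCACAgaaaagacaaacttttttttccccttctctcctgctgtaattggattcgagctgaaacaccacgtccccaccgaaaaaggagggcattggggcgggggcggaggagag

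The AP-1 letters began 35 bases before the start of Mmp13, 44 before that of Mmp12, 46 before that of Mmp3 and 63 before those of Mmp10 and Mmp7. These 5 were the member promoters that held the motif, and it was present in 5.2% of all 32851 promoters of the table. The RUNX letters stood 118 bases before the start of Mmp13 and 114 before that of Mmp14, and 4 member promoters held them, against 16.8% of all promoters. The forkhead letters were 81 bases before the start of Mmp13, and 3 member promoters held them, against 3.65% of all promoters. Mmp13 was the member whose promoter held all 3 motifs, as did 18 of all promoters (0.0548%). Matches of this kind are letters in a window and were not tested as binding sites.

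The libraries held between 37853988 and 47794799 counts, so that 1 count equalled between 0.0209 and 0.0264 CPM (counts scaled to the size of the library). Levels are given as CPM after scaling by edgeR's TMM method, and levels of different genes are compared as CPM per kb of exon. The targeted gene Foxc1 stood at 23.1, 36.9 and 24.2 CPM in E420, E434 and E435, against 3.56, 9.61 and 3.51 CPM in E423, E433 and E440, lower in each mutant as the labels say. Controls E420 and E435 were alike, as were mutants E423 and E440, with an SD of the log2 ratio over genes of 0.153 and 0.132, against 0.471 to 1.37 for the other pairs. The expected counts of E420 and E435 had a chi-square per gene of 5.42, and those of E423 and E440 of 2.27, more than counting noise gives. The other pairs within a group had 84.9 to 122.8. A value above counting noise cannot tell separate embryos from separate preparations of the same RNA. Each library was kept as a sample because the labels name separate embryos, and whether the close pairs share a litter or preparation is not known. E434 and E433 stood apart by their cartilage: the summed level of 14 early chondrocyte markers was 2147, 27956 and 2043 CPM in E420, E434 and E435, against 744, 10381 and 720.5 CPM in E423, E433 and E440. Each of these 14 markers was detected. Mutant E433 was also the library with Xist, at 1127 CPM against at most 3.11 CPM in the others. In whole tissue, fewer cells of a type and less RNA per cell cannot be told apart.

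In controls, 4 Mmp genes made up most of the Mmp transcripts per length. Mmp9 came first with 82.6 ± 6.02 CPM per kb (SD, n = 3), followed by Mmp2 with 78.7 ± 23.3, Mmp13 with 76.8 ± 1.64 and, after Timp2, Mmp14 with 52.1 ± 4.20 CPM per kb. Control ranges of Mmp9, Mmp2, Mmp13 and Timp2 overlapped from each gene to the next, so these 4 are not in a firm order. Timp2 at 71.8 ± 12.2 CPM per kb lay apart from Mmp14, Mmp14 from Timp1 at 32.2 ± 7.23, and Timp1 from Adamts2 at 10.9 ± 0.902 CPM per kb. Over the whole order of 42 genes, 12 of the 41 pairs of neighbours had control ranges that did not overlap. The highest Adamts genes after Adamts2 were Adamts10 (10.1 ± 0.250 CPM per kb), Adamts1 (9.98 ± 0.994), Adamts14 (8.20 ± 0.874) and Adamts12 (7.16 ± 1.31), and Mmp15 stood among them at 10.6 ± 1.88 CPM per kb. In the deposited TPM values, which use the length of the transcripts present, Mmp14 ranked first at 174 ± 14.4 TPM and Mmp9 ranked number 4, and 9 of the 10 highest genes were shared with the order per exon length.

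In mutants the order of the Mmp genes was different. The summed level of the Mmp family was 308, 373 and 305 CPM per kb in E420, E434 and E435, against 171, 191 and 167 CPM per kb in E423, E433 and E440. The 3 mutants therefore lay well below the controls, at a ratio of the means of 0.536. Mmp13 took 23.5% ± 2.47 of the Mmp sum in controls and 5.67% ± 4.20 in mutants (SD, n = 3 each), and Mmp9 took 25.2% ± 1.16 and 13.9% ± 9.60. With these 2 genes left out, the Mmp sum was 152, 206 and 149.8 CPM per kb in the controls and 124, 184 and 121 CPM per kb in the mutants, and the groups overlapped. Among all 42 genes, Timps and Adamts included, Mmp2 ranked first in mutants (68.6 ± 24.1 CPM per kb) and Mmp13 number 9. The Adamts sum was 83.0 ± 8.48 CPM per kb in controls and 75.2 ± 14.7 in mutants, and the Timp sum 113 ± 20.8 and 84.3 ± 12.7 CPM per kb. The ratio of the Timp sum to the Mmp sum was 0.332, 0.369 and 0.329 in E420, E434 and E435, against 0.454, 0.517 and 0.458 in E423, E433 and E440, higher in each mutant than in any control. The Mmp sum in this ratio holds Mmp9 and Mmp13. The Timp sum itself was 102, 137 and 100 CPM per kb in E420, E434 and E435, against 77.5, 98.9 and 76.5 CPM per kb in E423, E433 and E440. As a ratio to the Mmp sum without Mmp9 and Mmp13, the Timp sum was lower in each mutant than in any control.

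**Figure D1:**
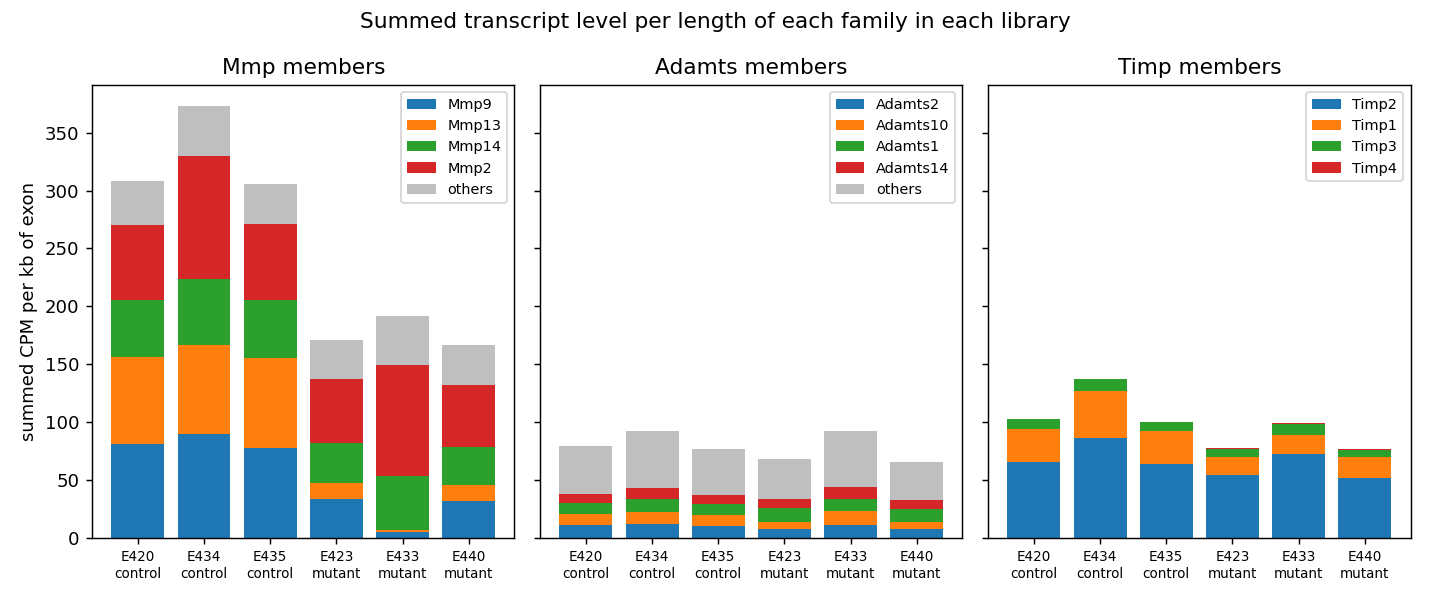
Summed CPM per kb of exon (vertical axis) of the Mmp, Adamts and Timp genes in each of the 6 libraries (horizontal axis), with the leading genes of each family in colour and the others in grey. The Mmp bars reach 305 to 373 in controls and 167 to 191 in mutants, where the Mmp9 and Mmp13 segments are small. The Adamts bars of E423 and E440 are below those of the controls, and the Adamts bar of E433 is within the control range.

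Of the 42 members, 40 passed the filter of 10 counts summed over the libraries. The members not tested were Mmp20, the enamel protease enamelysin, with 0 counts in each library, and Mmp7, matrilysin, with 3 counts in control E420 and 0 in the others. With edgeR's quasi-likelihood test, adjusted by Benjamini-Hochberg over 26596 genes, 0 of the 40 passed the threshold of 0.1 in the adjusted p-value (range 0.201 to 0.939), where 0.0902% of all genes did. At an unadjusted p-value under 0.05, 6 members were lower and 5 higher in mutants, against 4.7% and 5.9% of all genes. By DESeq2's Wald test 2 members were called lower, Mmp13 and Timp1, and 4 were called higher, Mmp19, Mmp28, Timp4 and Adamts19, against 1.73% and 2.61% of all genes, and there was no adjusted p-value for 5 members of low count. The 3 mutants lay below the 3 controls for 8 members and above them for 6, against 8.21% and 6.81% of all genes. An exact permutation test of 3 against 3 embryos has 0.1 as its smallest 2-sided p-value, and was not used for single genes.

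Direction was more uniform than size. The fitted log2 fold change was below 0 for 30 members and above 0 for 10, with a median of -0.20, against 12968 and 13628 genes and a median of 0.01 over all genes tested. Family medians were -0.20 for Mmp, -0.18 for Adamts and -0.25 for Timp. The absolute change was 1 or more for 8 members, under 0.5 for 25, and among the 19 Adamts genes it was under 0.5 for 16.

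**Figure D2:**
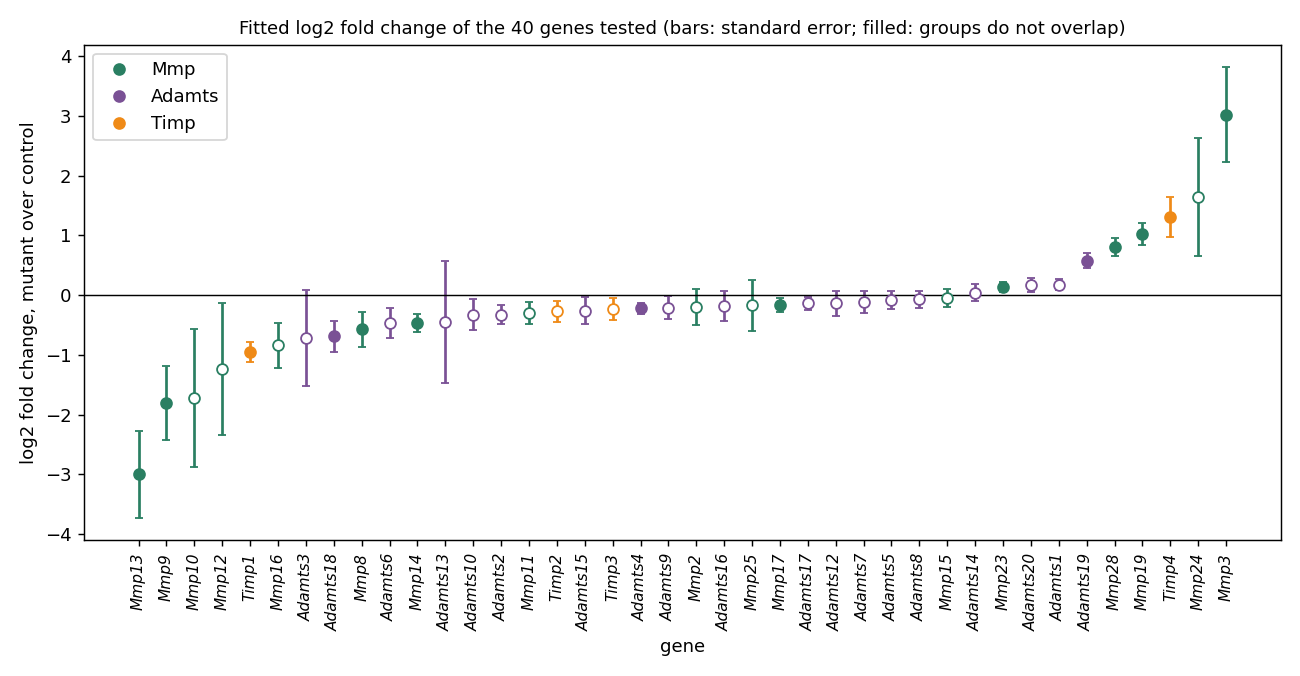
Fitted log2 fold change, mutant over control (vertical axis), of the 40 genes tested, ordered by its value (horizontal axis), with bars of 1 standard error. Filled points mark genes whose mutant and control libraries do not overlap, and 30 genes lie below 0, with Mmp13 lowest. The widest bars belong to genes of low count. Adamts3, Mmp13 and Mmp9, which are not of low count, also have wide bars, with libraries spread within a group.

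The mutants were not alike in this respect. Mutant E423 lay below all 3 controls for 27 of the 40 members and E440 for 27, against 30.6% and 31.1% of all genes, whereas E433 did for 9, against 23.5% of all genes. Above all 3 controls lay 8 members in E423, 9 in E440 and 17 in E433, against 31.9%, 32.4% and 25.2% of all genes. E433 was the highest of the 3 mutants for 25 members. On the scale of log2 ratios to the mean of the controls, the median Mmp gene was at -0.50 in E423, -0.51 in E440 and 0.08 in E433, and the median Adamts gene at -0.33, -0.36 and 0.16. The cartilage content of E433 differed from that of E423 and E440 as given above, and its part in these counts was not tested. Without E433, edgeR called 12 members lower and 5 higher, against 6.18% and 7.22% of all genes. The mutants are then the close pair E423 and E440, so p-values given without E433 rest on the small spread of that pair.

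**Figure D3:**
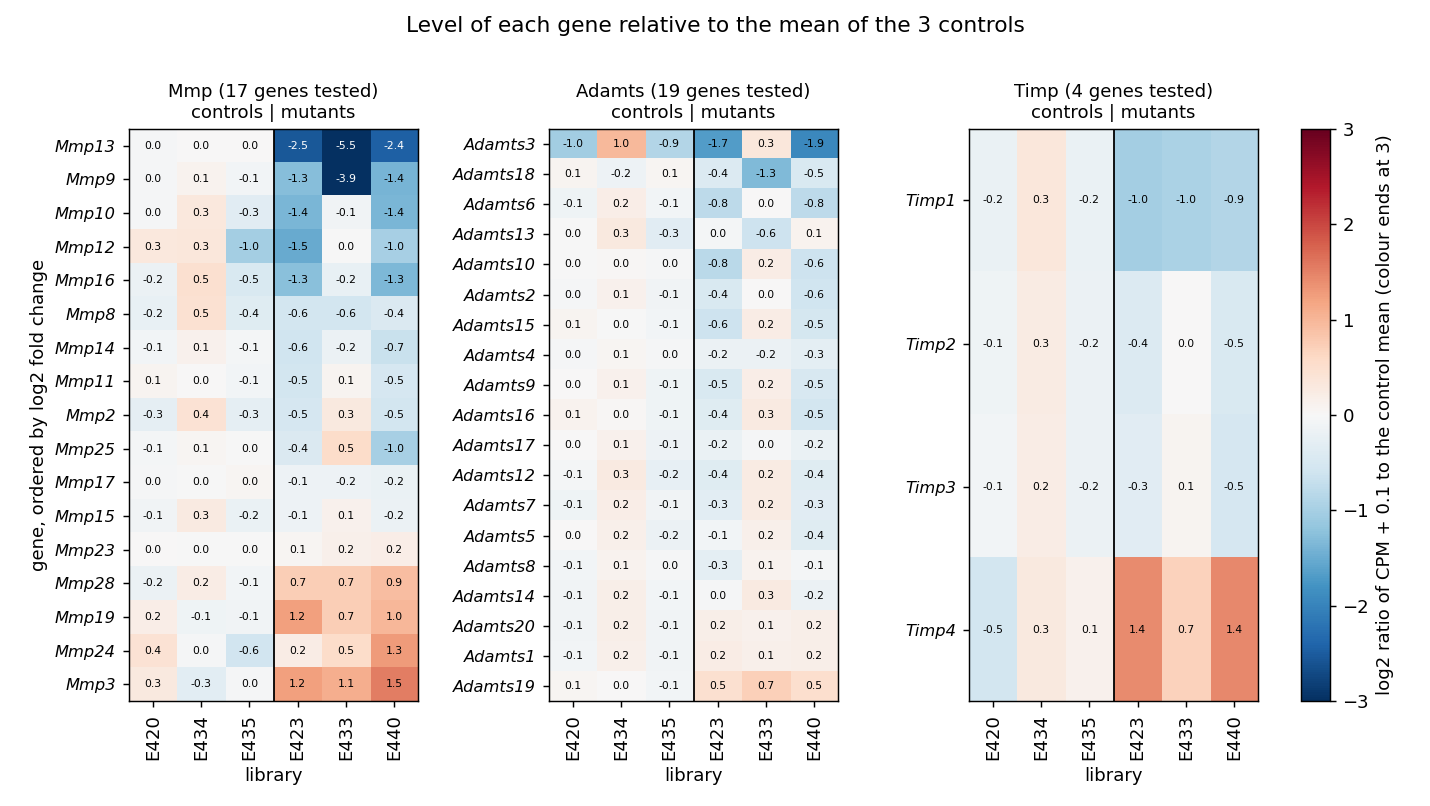
Log2 ratio of CPM + 0.1 in each library (columns, controls left of the line and mutants right of it) to the mean of the 3 controls for each tested gene (rows), by family. Blue is below and red above the control mean; E423 and E440 are blue for most genes. E433 has the same colour as they do for genes such as Timp1, Mmp28 and Adamts19, and is a deeper blue for Mmp13 and Mmp9.

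The collagenases are Mmp13 and Mmp8, and for both the mutants lay below the controls. Mmp13 (ENSMUSG00000050578.10) had 200.2, 207 and 208 CPM in E420, E434 and E435, against 35.1, 4.29 and 37.8 CPM in E423, E433 and E440. The controls agreed closely (205 ± 4.38 CPM, SD, n = 3) while E433 was far below the other mutants, and the mean was 7.97-fold lower in mutants. The log2 fold change was -3.00 (standard error 0.730, adjusted p = 0.346 from edgeR and 0.0156 from DESeq2), and it ranged from -3.38 to -2.49 when each library was left out in turn. The summed level of 12 osteoblast and osteocyte markers was 22675 to 32732 CPM in controls and 16463 to 17869 CPM in mutants, and that of 8 hypertrophic chondrocyte markers 2191 to 2836 and 1013 to 1482 CPM, with no marker of either list at 0. The first sum is carried by abundant collagen and matrix genes such as Col1a1, Col1a2 and Sparc, and the median log2 fold change was -1.07 over the 12 markers and -1.25 over the 8. The part of these cells in the level of Mmp13 was not tested. No marker of either list had a log2 fold change as low as that of Mmp13, so lower ratios to them follow largely from its own fall. The ratio of Mmp13 to a single marker was lower in each mutant than in any control for all 12 osteoblast and osteocyte markers. It was also lower for 6 of the 8 hypertrophic markers, among them Mef2c, with a log2 fold change of 0.02. The ratio fell by unequal amounts, and the same count over all genes was not made. Relative to Ibsp, a bone and late cartilage matrix gene, it was 0.217, 0.233 and 0.216 in controls and 0.0567, 0.0174 and 0.0625 in mutants. Relative to Dmp1, a matrix gene of osteocytes, it was 3.87, 5.06 and 4.25 in controls and 3.25, 1.13 and 3.69 in E423, E433 and E440, so that E423 and E440 were close to the lowest control. Relative to Col10a1 and Ihh, the remaining hypertrophic markers, the groups overlapped. Ibsp and Alpl are in both marker lists and count in each. Runx2, the transcription factor that turns on Mmp13 in bone, had a log2 fold change of -1.13, and Sp7, which acts with it, -1.32 (adjusted p = 0.155 and 0.146 from edgeR), and DESeq2 called both lower. Mmp8, the collagenase of neutrophils, was scarce, at 0.865, 1.46 and 0.783 CPM in controls and 0.674, 0.673 and 0.737 CPM in mutants. Its groups were apart by a small margin (log2 fold change -0.57, standard error 0.297, adjusted p = 0.538 from edgeR), while the summed level of 8 neutrophil markers was 10.1 to 14.97 CPM in controls and 11.1 to 17.4 CPM in mutants.

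Of the gelatinases, Mmp9 differed between the groups and Mmp2 did not separate them. Mmp9 (ENSMUSG00000017737.2) had 286, 316 and 275 CPM in E420, E434 and E435, against 120.1, 18.9 and 112 CPM in E423, E433 and E440, a mean 3.50-fold lower. All mutants lay below all controls, and E433 was again lowest, but the spread among mutants left the difference outside the threshold (log2 fold change -1.81, standard error 0.617, adjusted p = 0.421 from edgeR and 0.201 from DESeq2). Without E433, which leaves the close pair E423 and E440, edgeR gave a log2 fold change of -1.33 with an adjusted p of 0.0033 (9.01e-15 to 0.877 over the 14 alternatives). The summed level of 10 osteoclast markers was 404 to 434.5 CPM in controls and 172 to 257 CPM in mutants, and none of them was at 0. All 10 had mutants below controls, and edgeR called 1 of them, Ctsk, the collagen-cutting cathepsin K of osteoclasts. Relative to that sum, Mmp9 stood at 0.659, 0.782 and 0.641 in controls and 0.473, 0.110 and 0.435 in mutants, lower in each mutant. The sum is carried by abundant markers such as Ctsk, with 86.8 of the 172 CPM in E433, so the ratio depends on the markers summed. Acp5, Ocstamp, Dcstamp, Atp6v0d2 and Oscar were, like Mmp9, far lower in E433 than in E423 and E440. Atp6v0d2 had 22.2, 23.4 and 20.9 CPM in controls and 12.7, 1.55 and 11.98 CPM in mutants. Ctsk, Calcr, Itgb3, Nfatc1 and Tnfrsf11a differed less between the mutants. Relative to Ctsk alone Mmp9 stood at 1.25, 1.97 and 1.19 in controls and 1.43, 0.218 and 1.27 in mutants, where E433 was the library outside the control range. The part of osteoclast content in the level of Mmp9 was not tested. Mmp2 had 221, 356 and 219 CPM in controls and 187, 325 and 181 CPM in mutants (log2 fold change -0.20, standard error 0.295, adjusted p = 0.836 from edgeR). Its highest values were in E434 and E433, the libraries rich in cartilage markers, and the sign of its change turned when E434 was left out.

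**Figure D4:**
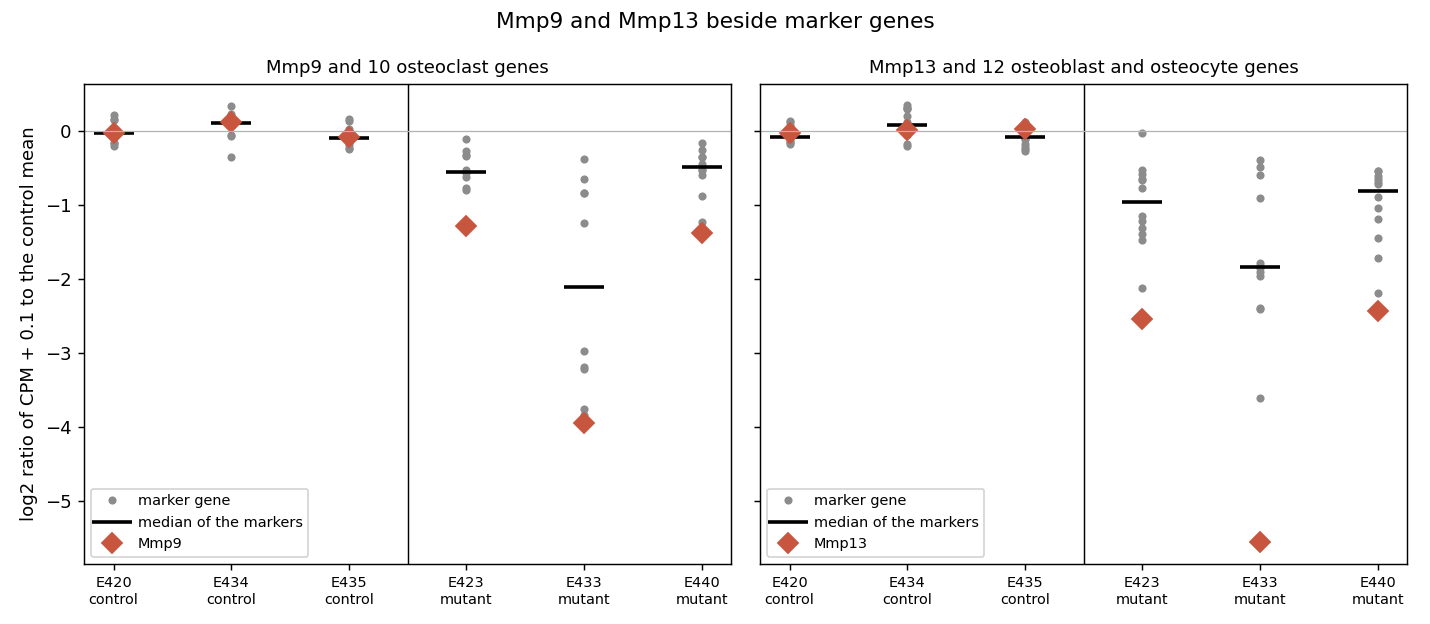
Log2 ratio of CPM + 0.1 to the control mean (vertical axis) in each library (horizontal axis) for Mmp9 beside 10 osteoclast markers (left) and for Mmp13 beside 12 osteoblast and osteocyte markers (right). Grey points are single markers, black bars their median and red diamonds the protease; in the 3 mutants the diamonds lie at or below the lowest markers, and both are lowest in E433.

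Mmp14, the collagen-cutting membrane enzyme, was also lower in each mutant than in any control. It had 294, 339.6 and 299 CPM in E420, E434 and E435, against 205, 275 and 194 CPM in E423, E433 and E440, so the gap between the groups was narrow beside that of Mmp13. The log2 fold change was -0.47 (standard error 0.151, adjusted p = 0.408 from edgeR), and -0.63 with an adjusted p of 0.0254 without E433 (1.91e-09 to 0.915 over the 14 alternatives). Timp2, its partner in the activation of Mmp2, had 256, 334 and 249 CPM in controls and 210.3, 282 and 203 CPM in mutants, and these groups overlapped (log2 fold change -0.27, standard error 0.175, adjusted p = 0.614). The ratio of Timp2 to Mmp14 counts was 0.871, 0.985 and 0.833 in controls and 1.02, 1.03 and 1.04 in mutants, apart between the groups by a small margin. Mmp15 had 52.6, 68.6 and 49.8 CPM in controls and 51.7, 62.5 and 50.8 CPM in mutants, with no direction that held across libraries. Mmp16 followed the cartilage-rich libraries, at 45.2, 70.8 and 36.9 CPM in controls and 21.3, 44.0 and 20.02 CPM in mutants (log2 fold change -0.84, standard error 0.375). Mmp17, anchored to the membrane by a lipid, had mutants just below controls, at 5.98 to 6.39 CPM against 5.40 to 5.58 CPM. Mmp24 had at most 12 counts in a library and Mmp25 at most 76, and both overlapped between groups.

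Mmp3, Mmp10 and Mmp12 were near the limit of detection. Mmp3, stromelysin 1, had 2, 0 and 1 counts in E420, E434 and E435, against 8, 7 and 12 counts in E423, E433 and E440. The mutants were above the controls in each case. Against a floor of 3 counts per library the mean of the mutants was 3.01-fold higher, with the counting error of the mutants not covered. This was a difference that edgeR did not call (adjusted p = 0.366). Its neighbour Mmp10 had 6, 10 and 5 counts in controls and 0, 6 and 0 counts in mutants, and Mmp12, the macrophage elastase, 10, 12 and 2 counts in controls and 0, 8 and 2 in mutants, where the summed level of 8 macrophage markers was 255 to 267 and 222 to 244 CPM. Of the 5 tested genes of the chromosome 9 run, 4 were below 0 in log2 fold change and Mmp3 was above 0, and all of these but Mmp8 had the AP-1 letters in a promoter. The remaining stromelysin, Mmp11, is made by stromal cells and overlapped between groups, at 20.4 to 22.7 CPM in controls and 14.7 to 22.9 CPM in mutants.

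Of the Mmp genes outside these groups, 3 were tested, Mmp19, Mmp28 and Mmp23, and each was higher in every mutant than in any control. Mmp19, a basement membrane protease, had 3.69, 2.89 and 2.97 CPM in E420, E434 and E435, against 7.60, 5.36 and 6.48 CPM in E423, E433 and E440, a mean 2.04-fold higher. The log2 fold change was 1.03 (standard error 0.186, adjusted p = 0.211 from edgeR and 2.2e-04 from DESeq2), with a range from 0.90 to 1.15 without each library in turn. Strand was not used in counting, and 22.3% of the exon bases of Mmp19 are shared with Tmem198b on the opposite strand, which had 517 to 709 counts in controls and 521 to 668 in mutants. Mmp28, epilysin, an enzyme first known from skin, had 4.78, 6.35 and 5.11 CPM in controls and 9.07, 9.07 and 10.3 CPM in mutants, with groups well apart. Its log2 fold change was 0.81 (standard error 0.153, adjusted p = 0.231 from edgeR and 6e-04 from DESeq2), and 12.03% of its exon bases are shared with 1700020L24Rik on the opposite strand, which had 30 to 57 counts in controls and 57 to 81 in mutants. The summed level of 7 keratinocyte markers was 4998, 11.3 and 5832 CPM in controls and 27037, 3043 and 27165 CPM in mutants. The part of keratinocytes in the level of Mmp28 was not tested. Mmp23 had 23.3 to 24.0 CPM in controls and 24.5 to 27.0 CPM in mutants. Its log2 fold change was 0.14 (standard error 0.0817), small beside those of Mmp19 and Mmp28.

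**Figure D5:**
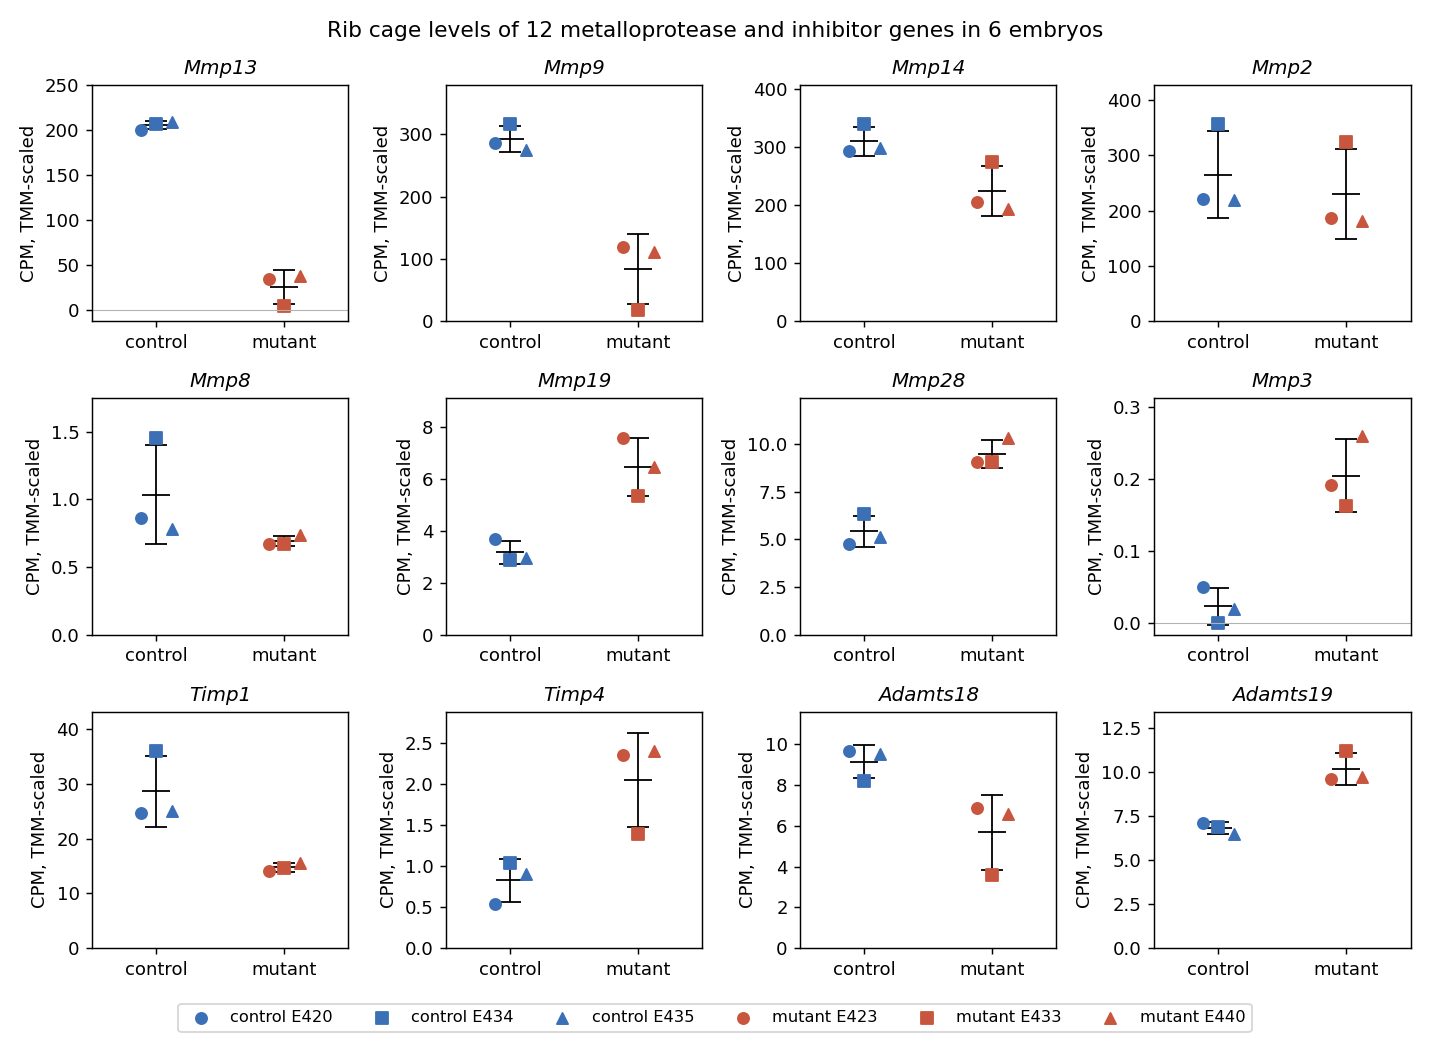
CPM (vertical axis, from 0, with a separate scale for each gene) of 12 genes in the 3 control (blue) and 3 mutant (red) libraries, with 1 symbol per embryo and black lines at the mean ± SD. Mmp13 and Mmp9 are lowest in mutant E433, Timp1 lies at 14.1 to 15.6 CPM in all 3 mutants, and Mmp19, Mmp28, Mmp3, Timp4 and Adamts19 are above the controls in each mutant.

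Among the inhibitors, Timp1 and Timp4 lay apart between groups in opposite directions. Timp1, the inhibitor of secreted Mmps such as Mmp9 and Mmp13, had 24.8, 36.0 and 25.1 CPM in E420, E434 and E435, against 14.1, 14.7 and 15.6 CPM in E423, E433 and E440. The mutants agreed closely, E433 included, and the mean was 1.94-fold lower (log2 fold change -0.95, standard error 0.167, adjusted p = 0.201 from edgeR and 1.1e-04 from DESeq2). Timp1 lies on the X chromosome, and the part of embryo sex in its level was not tested. Relative to Timp1, Mmp13 stood at 2.68, 1.91 and 2.76 in controls and 0.829, 0.0972 and 0.802 in mutants, as a ratio of CPM per kb, lower in each mutant than in any control. Timp4 had 0.534, 1.04 and 0.907 CPM in controls and 2.36, 1.39 and 2.41 CPM in mutants, with the lowest mutant, E433, close to the highest control. Its log2 fold change was 1.30 (standard error 0.334, adjusted p = 0.358 from edgeR and 0.028 from DESeq2). The summed level of 6 adipocyte markers was 138 to 150.1 CPM in controls and 632, 212 and 650 CPM in E423, E433 and E440, each of the 6 was above the controls in all mutants, and none was at 0. The part of fat cells in the level of Timp4, a gene known from fat and heart, was not tested. Timp3 overlapped between groups, at 65.9 to 87.9 CPM in controls and 52.4 to 79.4 CPM in mutants, and 21.3% of its exon bases are shared with Syn3 on the opposite strand, which had 4 to 12 counts in a library.

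Between the group means the Adamts genes differed little, but the mutants were not alike. Their log2 fold changes ran from -0.71 to 0.58, edgeR called 0 of the 19 (2 lower and 1 higher at an unadjusted p-value under 0.05), and DESeq2 called Adamts19 alone. E423 lay below all controls for 13 of the 19 and E440 for 14, against 30.6% and 31.1% of all genes. E433 lay below all controls for 3 and above them for 9, against 23.5% and 25.2% of all genes. Adamts19, an orphan protease of heart valves and gonads (chromosome 18), had 7.10, 6.86 and 6.45 CPM in E420, E434 and E435, against 9.57, 11.2 and 9.69 CPM in E423, E433 and E440. It was higher in all mutants, E433 most of all, by 1.49-fold (log2 fold change 0.58, standard error 0.121, adjusted p = 0.269 from edgeR and 0.0048 from DESeq2). Adamts18 was lower in all mutants, with 9.67, 8.21 and 9.54 CPM in controls and 6.88, 3.57 and 6.59 CPM in mutants (log2 fold change -0.69, standard error 0.259, adjusted p = 0.443 from edgeR). As for Mmp13 and Mmp9, E433 was lowest.

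Enzymes that cut aggrecan and versican include Adamts1, Adamts4, Adamts5, Adamts8, Adamts9, Adamts15 and Adamts20. None of these 7 was called by edgeR or DESeq2, and Adamts4 was the member whose groups lay apart, at 21.2 to 22.8 CPM in controls and 17.7 to 19.3 CPM in mutants (log2 fold change -0.22, unadjusted p = 0.0452). Adamts1 had 50.3, 59.0 and 49.4 CPM in controls and 61.4, 58.5 and 59.5 CPM in mutants, and Adamts5, the main aggrecanase of adult mouse cartilage, 42.5 to 53.7 and 37.7 to 53.8 CPM. These groups overlapped, as did those of Adamts9 (64.4 to 77.0 and 50.9 to 81.3 CPM), Adamts15 (56.2 to 62.2 and 38.3 to 69.0 CPM), Adamts8 (8.40 to 9.69 and 7.34 to 9.70 CPM) and Adamts20 (12.7 to 15.5 and 15.1 to 15.5 CPM). For Adamts9 and Adamts15, E433 was above all controls while E423 and E440 were below them, and without E433 edgeR called both lower (adjusted p = 0.0475 and 0.0205, with ranges of 1.07e-05 to 0.975 and 2.75e-07 to 0.975 over the 14 alternatives).

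The procollagen N-propeptidases trim the ends of fibrillar procollagens. Adamts2, which acts mainly on types I and III, had 100.2, 111 and 94.8 CPM in controls and 74.8, 102 and 67.3 CPM in mutants (log2 fold change -0.33, standard error 0.165, adjusted p = 0.534 from edgeR). E433 lay within the control range and the other mutants below it, and without E433 the adjusted p was 0.0404 (1.11e-06 to 0.939 over the 14 alternatives). Adamts14 had 39.5, 47.9 and 40.5 CPM in controls and 41.9, 51.6 and 37.8 CPM in mutants, with no difference beyond the spread. Adamts3, known from cartilage and from the activation of Vegfc, had 5.45, 22.5 and 6.12 CPM in controls and 3.49, 14.4 and 2.88 CPM in mutants, highest in the cartilage-rich library of each group. Of the enzymes that cut Comp, Adamts12 had 74.7, 94.0 and 66.0 CPM in controls and 61.1, 92.4 and 60.4 CPM in mutants, and Adamts7 33.6 to 42.1 and 29.1 to 43.4 CPM. Among the enzymes of fibrillin fibres, Adamts10 was tightly grouped in controls at 82.7, 85.9 and 82.0 CPM and spread in mutants at 47.8, 97.1 and 54.3 CPM, so that E433 was above and the others below. Its relatives Adamts6 and Adamts17, and Adamts16, overlapped between groups, with log2 fold changes from -0.47 to -0.14. Adamts13, the von Willebrand factor protease of liver, had at most 4 counts in a library.

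Among relatives outside these families, edgeR called 0 genes in any list, against 0.0902% of all genes. DESeq2 called some, where it called 1.73% of all genes lower and 2.61% higher. At an unadjusted p-value under 0.05 from edgeR, 4.7% of all genes were lower and 5.9% higher. Of 10 Adam genes, membrane proteases that shed growth factors and receptors, edgeR called 0 (1 lower and 1 higher at an unadjusted p-value under 0.05) and DESeq2 called Adam33 higher (log2 fold change 0.52). Of 7 Adamts-like genes, which lack a catalytic domain, edgeR called 0 (3 lower and 1 higher unadjusted) and DESeq2 called Adamtsl3 lower (-0.71) and Adamtsl5 higher (0.91). Among 5 astacin proteases and enhancers of procollagen trimming neither test called any (1 lower unadjusted). Of 15 activators and inhibitors, edgeR called 0 (1 lower and 2 higher unadjusted), and DESeq2 called Serpine2 lower, an inhibitor of plasmin-generating enzymes (-0.82). The 2 higher at an unadjusted p-value under 0.05 were Plg and Serpinf2, liver genes, and the summed level of 5 hepatocyte markers was 29.8 to 45.5 CPM in controls and 28.8, 581 and 28.9 CPM in E423, E433 and E440. Of 20 substrates, edgeR called 0 (3 lower unadjusted), and DESeq2 called Col1a1 (-0.65), Col1a2 (-0.61) and Spp1 (-2.38) lower. DESeq2 gave no adjusted p-value for 6, the cartilage genes Col2a1, Col9a1, Acan, Hapln1, Comp and Matn3. These were not of low count, were highest in E434 and E433, and had log2 fold changes from -1.95 to -1.28. Of the other 4 Mmp genes, Mmp1a, Mmp1b and Mmp21 had too few counts to be tested, and Mmp27 had 0.529, 0.464 and 0.477 CPM in mutants, above each control, and was called by neither test. Of 12 tested transcription factors known to act on protease genes, edgeR called 0 (2 lower and 1 higher unadjusted) and DESeq2 called Runx2 and Sp7, given above. The AP-1 subunits Fos, Fosl2, Jun, Junb and Jund were called by neither test, with log2 fold changes of 0.28, 0.24, 0.34, 0.70 and -0.05.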

How the data were processed

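Sequencing used stranded mRNA libraries, read from both ends. The authors deposited raw counts per gene from featureCounts 1.6.0 on HISAT2 2.1.0 alignments to GRCm38, with each end counted singly, without strand, and with reads of several places or several genes left out, so overlapping genes are uncertain. They also deposited expected counts and TPM from RSEM 1.2.31 after STAR 2.7.6, in which shared fragments are divided. The authors' own DESeq2 1.26.0 tables (fold changes, p-values and 12 columns of per-sample values) were not used here. The members and all gene lists were chosen with earlier results of these data known.

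The main test was edgeR 4.0.16 in R 4.3.3 (glmQLFit and glmQLFTest, TMM scaling, no covariate) on 26596 genes, those whose counts over all 6 libraries came to 10 or more. P-values were adjusted by Benjamini-Hochberg over all genes tested, with a threshold of 0.1 as in the study's methods. The standard error is the fitted change over the square root of F. Log2 ratios used a pseudocount of 0.1 CPM. A gene with 3 counts or fewer in each control is compared with a level of 3 counts, which does not cover counting error in the mutants. Per-library values were given for members called by edgeR or DESeq2, for those apart between groups with an absolute log2 fold change of at least 0.5, and for the 5 Mmp, 5 Adamts and 2 Timp genes highest per length. Other members named were picked with their values known. Alternatives were DESeq2 1.42.0 (size factors, Wald test), filterByExpr, no filter, a robust step, rounded expected counts and each library left out. Leaving out E433 with E434, and the mean log2 level of the early chondrocyte markers as a covariate, were chosen after seeing the data. The steps were tested on simulated data.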

Additional observations from a re-analysis of the deposited data

How the results depend on the processing

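The count of members called depended on the test and on 1 library. From 0 lower and 0 higher with edgeR (6 and 5 at an unadjusted p-value under 0.05), it became 2 and 4 with DESeq2's Wald test, 3 and 3 with the early chondrocyte score as a covariate (0.914% and 1.03% of all genes), and 22 and 7 without E433 and E434 together, which leaves the 2 close pairs and calls 18.3% and 19.4% of all genes. Leaving out each library in turn gave 0 to 12 lower and 0 to 5 higher, the highest without E433. Members apart and lower numbered 8, with a range from 8 to 25 without each library (25 without E433), and 25 without E433 and E434 together. Those apart and higher ranged from 6 to 8. Leaving out a library can only keep or raise these counts of members apart, so they are no check on them. The family medians stayed below 0 under all alternatives, from -0.53 to -0.15 for Mmp, -0.33 to -0.04 for Adamts and -0.43 to -0.097 for Timp. Of 40 members, 30 kept their sign without each library. Among them were all 14 whose groups were apart, for which this follows from the groups being apart.

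Of the 10 whose sign turned, the range was -0.52 to 0.072 for Mmp2, -0.15 to 0.10 for Mmp15 (0.0024 without E440), -0.77 to 0.15 for Mmp25, -1.83 to 0.26 for Adamts3, -0.21 to 0.044 for Adamts5 (0.0046 without E434), -0.33 to 0.00035 for Adamts7, -0.16 to 0.030 for Adamts8, -0.36 to 0.020 for Adamts12, -0.84 to 0.11 for Adamts13 and -0.092 to 0.13 for Adamts14 (-0.013 without E420). With the covariate the sign turned to 0.067 for Mmp2, 0.088 for Mmp15, 0.028 for Adamts5, 0.036 for Adamts7, 0.012 for Adamts8 and 0.042 for Adamts12. Without E433 and E434 together it turned to 0.0049 for Mmp15 and -0.0046 for Adamts14. The cause was not tested. Other size factors, no filter, the robust step and the expected counts turned no member's sign. No paired analysis was possible because the labels give no shared replicate number and do not say which embryos were littermates. With 3 embryos a group, 4 of them in 2 close pairs, a small change in an abundant gene is limited by the spread between embryos and not by depth, and a change in Mmp3, Mmp10, Mmp12, Mmp24 or Adamts13 by counts.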
